A study of Homo sapiens with 12 samples.

Results

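The genes described here are those of glycolysis, glucose transport and hexokinases: 34 genes, from the glucose carriers through the glycolytic enzymes to lactate export and the kinases that close off pyruvate dehydrogenase. They were chosen by gene symbol from the 57500 genes of the deposited count table, each symbol matched 1 row, and all 34 were among the 27029 genes with enough counts to be tested. HCC1806 and MDA-MB-468 are established human cell lines from triple-negative breast cancer, which lacks the estrogen and progesterone receptors and HER2 amplification. PACT, which PRKRA encodes, binds double-stranded RNA, and the study compared cells in which CRISPR-Cas9 had targeted it with cells that carried a control guide. The 12 libraries of total RNA formed 4 groups of 3: HCC1806 with the control guide sgC1, HCC1806 with the PRKRA guide sgPACT-2, MDA-MB-468 with the control guide sgNTA, and MDA-MB-468 with sgPACT-2. Only 1 guide against PRKRA was used in these libraries. The control guide differed between the lines, so that line and control guide cannot be told apart. The labels do not say whether replicates came from separate cultures, so the p-values measure the spread between these libraries, which may be technical.

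Glycolysis splits glucose into pyruvate and yields ATP and NADH, and lactate dehydrogenase turns pyruvate into lactate to restore NAD+ when glycolysis runs fast. Glucose enters through carriers of the SLC2A family, is trapped by hexokinases, is committed by phosphofructokinase, and leaves as lactate through monocarboxylate carriers. Many steps have several isozymes encoded by separate genes, and cancer cells commonly raise the carrier GLUT1 (SLC2A1), HK2 and LDHA. The PDK genes encode kinases that switch off pyruvate dehydrogenase and thereby keep pyruvate from the mitochondria.

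The deposited values are raw read counts per gene. The 6 HCC1806 libraries held 18640633 to 24704877 counts each, and the 6 of MDA-MB-468 held 34581754 to 44790741. Levels are given as CPM, the counts divided by the TMM-scaled library size and brought to a common total. Differences are log2 fold changes with standard errors (SE) from edgeR's quasi-likelihood model of all 12 libraries, and a gene was called when its adjusted p-value over all tested genes was under 0.05. PRKRA fell in HCC1806, from 77.7 ± 5.29 to 36.9 ± 0.773 CPM (SD, n = 3 each; log2 fold change -1.07, adjusted p 1.7e-05, or 0.00311 with the line fitted alone). In MDA-MB-468 it measured 44.6 ± 3.11 and 38.7 ± 3.09 CPM (adjusted p 0.958), so that PACT was depleted there is taken from the labels alone. The difference between the lines in the change of PRKRA was itself called, at 0.87 on the log2 scale. Replicates differed more in HCC1806, where the biological coefficient of variation of the line fitted alone was 0.204, than in MDA-MB-468, where it was 0.0936. The joint model uses 1 spread for both lines (0.171), and depletion calls are therefore also given from a fit of their own line. All 8 epithelial markers were detected in both lines, with summed levels of 2561 to 3111 CPM in HCC1806 controls, 1798 to 2022 in its depleted libraries, and 4424 to 5348 in MDA-MB-468. In HCC1806, 3 of the 8 (KRT5, EPCAM and CDH1) were called lower after depletion, none of them with the line alone (adjusted p 0.138, 0.232 and 0.260), and the part of this shift in the glycolytic results was not tested. ESR1, PGR and ERBB2 together held 130.7 to 231.9 CPM, 3 fibroblast markers 16.9 to 48.7, 3 endothelial markers 1.42 to 4.01 and 3 leukocyte markers 0.114 to 4.08. Only 2 of the 3 receptor genes and 1 of the 3 fibroblast genes had enough counts to be tested. In MDA-MB-468 controls 2 of the fibroblast genes had no count. These sums therefore do not show expression of each set as a whole.

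In HCC1806, PACT depletion was accompanied by lower transcript levels of the main glucose carrier and of the most abundant glycolytic enzyme. SLC2A1, which encodes GLUT1, and GAPDH, which oxidises glyceraldehyde phosphate, were the 2 of 34 genes called, both lower, or 5.88% of the 34. Of all tested genes, 2.49% were called in this line and 1.32% were called lower. In all, 24 of the 34 log2 fold changes were negative, against 48.4% of all tested genes. The median was -0.24, against 0.01 over all tested genes. HK3 and PFKFB1 are included, though they passed the count filter only through MDA-MB-468. With HCC1806 fitted alone, which leaves both out, the median of 32 genes was -0.22, against 0.02 over all genes. By edgeR, 14 of the 34 had an unadjusted p under 0.05, against 3909 of the 27029 tested genes. With library size as the only scaling, the median of all genes moved to 0.13 and that of the 34 genes to -0.12, and the same count of 2 was called. Of all genes called, 46.7% were higher in depleted cells, and 81.6% under that scaling.

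The window of 250 bases before and 50 after the annotated start is shown for SLC2A1 and GAPDH, the genes called lower in HCC1806, and for HKDC1, the gene called in MDA-MB-468. The sequences come from RefSeq (GRCh38.p14) and are written in the direction of the gene. The windows of GAPDH and SLC2A1 lie wholly inside the gene spans given below, which come from another annotation (GENCODE). These windows therefore do not lie before the outermost start of either gene in that annotation. Capitals mark the searched motifs: ACGTG and GCGTG, the letters of the core element of hypoxia-inducible factor, and CACGTG, the E-box bound by MYC and related factors.
SLC2A1 promoter, chr1:42958819-42959118, minus strand: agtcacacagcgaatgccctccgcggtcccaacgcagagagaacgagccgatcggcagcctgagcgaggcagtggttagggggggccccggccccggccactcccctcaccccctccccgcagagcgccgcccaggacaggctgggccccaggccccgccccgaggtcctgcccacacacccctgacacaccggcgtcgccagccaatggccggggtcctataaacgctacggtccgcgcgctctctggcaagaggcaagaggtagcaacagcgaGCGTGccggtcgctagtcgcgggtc
GAPDH promoter, chr12:6535014-6535313, plus strand: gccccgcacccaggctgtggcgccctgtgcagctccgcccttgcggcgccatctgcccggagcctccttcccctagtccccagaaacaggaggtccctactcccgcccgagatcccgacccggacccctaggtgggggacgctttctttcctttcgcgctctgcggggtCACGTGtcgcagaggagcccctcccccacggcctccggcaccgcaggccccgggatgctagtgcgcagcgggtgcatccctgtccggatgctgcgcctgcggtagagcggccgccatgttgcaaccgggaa
HKDC1 promoter, chr10:69220082-69220381, plus strand: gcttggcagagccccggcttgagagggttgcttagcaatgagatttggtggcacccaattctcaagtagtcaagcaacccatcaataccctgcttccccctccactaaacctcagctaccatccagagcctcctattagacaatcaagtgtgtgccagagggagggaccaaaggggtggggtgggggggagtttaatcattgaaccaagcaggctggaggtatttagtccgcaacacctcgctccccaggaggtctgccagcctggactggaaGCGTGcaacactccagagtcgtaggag

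The windows of SLC2A1 and HKDC1 held GCGTG, and that of GAPDH held CACGTG, which contains ACGTG on both strands. Windows were found for 31 of the 34 genes, and each motif was searched on both strands. ACGTG was present in 10 of the 31 (32.3%) and in 21.6% of 27305 windows of all genes. GCGTG was present in 15 of the 31 (48.4%) and in 36.3% of all windows. CACGTG was present in 3 (ALDOC, GAPDH and LDHA, 9.68%) and in 7.43% of all windows. TGATGCAA, the composite element of the stress factors CHOP and ATF4, was present in 1 window (HK1) and in 0.923% of all windows. These matches describe letters only.

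SLC2A1 (ENSG00000117394, GRCh38 chromosome 1, 42925375 to 42959176, minus strand) measured 638.8, 512.5 and 533.6 CPM in the control libraries of HCC1806. It measured 434.7, 367.6 and 286.5 CPM in the depleted ones. Every depleted library lay below every control library. The level fell from 561.6 ± 67.7 to 363 ± 74.2 CPM (SD, n = 3 each), or by 0.63 on the log2 scale (SE 0.13, adjusted p 0.0148 by edgeR). The adjusted p was 7.4e-04 with DESeq2 but 0.183 with HCC1806 fitted alone, where 0.315% of genes were called. Without control replicate 1 it was 0.0552, and SLC2A1 passed when any other library was left out (11 fits). Less RNA per cell and fewer cells with the transcript cannot be told apart in bulk RNA. In MDA-MB-468 SLC2A1 measured 402.9, 423.6 and 425.4 CPM in controls and 387.1, 363.6 and 382.0 in depleted libraries. Those groups did not overlap either, but the change (-0.14, SE 0.13, adjusted p 1) was not called. The difference between the lines was 0.49 (SE 0.18, adjusted p 0.438), so the effects were not shown to differ. SLC2A1 shares exon sequence with the non-coding genes AC099795.1 and SLC2A1-AS1.

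GAPDH (ENSG00000111640, chromosome 12, 6533927 to 6538374, plus strand) measured 1808, 1715 and 1988 CPM in HCC1806 controls and 1542, 1137 and 1016 in depleted libraries. Depleted replicate 1 was the highest of its group and still lay below all controls. The level fell by 0.58 on the log2 scale (SE 0.13, adjusted p 0.0290). The adjusted p was 0.00524 with DESeq2 and 0.207 with HCC1806 alone. GAPDH lost the call when control replicate 1 or 3, depleted replicate 2 or 3, or MDA-MB-468 control replicate 2 was left out, with adjusted p up to 0.0927. Its levels in MDA-MB-468 were 2530, 2366 and 2450 CPM against 2529, 1985 and 2173, which overlapped (log2 fold change -0.14, adjusted p 1). The difference between the lines was 0.44 (SE 0.19, adjusted p 0.526). GAPDH has 62 pseudogenes that bear its name and an antisense neighbour, AC006064.4, so its reads are uncertain to that extent.

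**Figure D1:**
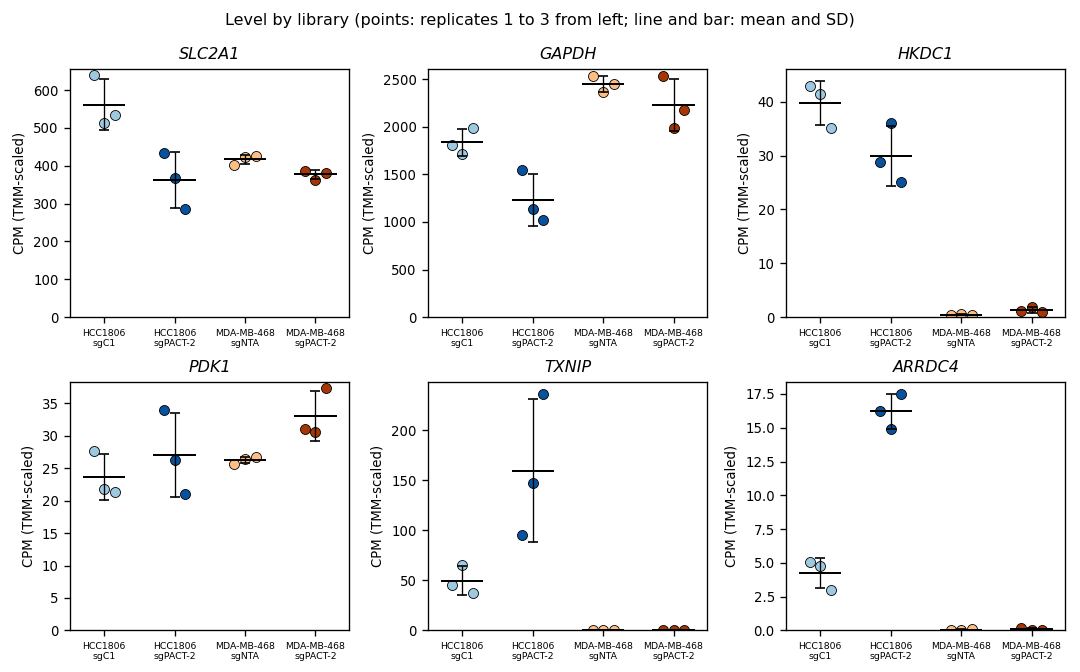
Levels of 6 genes in CPM (vertical axes, linear from 0) for each of the 12 libraries; points are replicates 1 to 3 and lines with bars give the mean and SD of 3. SLC2A1 and GAPDH are lower in all 3 depleted HCC1806 libraries, HKDC1 and PDK1 are higher in all 3 depleted MDA-MB-468 libraries, and TXNIP and ARRDC4 are higher in all 3 depleted HCC1806 libraries.

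Per kb of exon, GAPDH was the most abundant of the 34 transcripts in each of the 4 groups, at 616 ± 46.5 CPM per kb in HCC1806 controls and 821 ± 27.5 in MDA-MB-468 controls (SD, n = 3), followed by ALDOA and ENO1. The central enzymes had values on the same side of 0 as GAPDH. The 9 genes from GPI, the isomerase of glucose phosphate, through ALDOA, TPI1, GAPDH, PGK1, PGAM1, ENO1 and PKM to LDHA all had negative log2 fold changes in HCC1806, with a median of -0.44. Apart from GAPDH none was called, with adjusted p from 0.0847 for GPI to 0.416 for LDHA. Besides GAPDH, the 8 genes overlapped between control and depleted libraries. Set against the control mean, the median of the 9 genes was 0.17, -0.18 and 0.01 (log2) in controls, against -0.03, -0.56 and -0.82 in depleted replicates 1 to 3. Depleted replicate 1 was thus within the range of the controls, and the other depleted replicates lay below it for all 9 genes. Summed over the 9 genes, the libraries held 5899, 4872 and 5607 CPM in controls and 5193, 3606 and 3108 in depleted cells. Without depleted replicate 1 the median log2 fold change was -0.69 and 12 of the 34 genes were called, against 6.15% of all genes tested in that fit. Without depleted replicate 3 it was -0.27 and 1 was called, against 1.71% of all genes.

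Other abundant genes moved in the same libraries. The 381 other genes with a mean over 300 CPM had medians against the control mean of 0.06, -0.05 and -0.01 in HCC1806 controls and -0.10, -0.26 and -0.33 in depleted replicates 1 to 3. Their part in the result of the 9 enzymes was not tested. In MDA-MB-468 the 9 enzymes also all had negative log2 fold changes, from -0.14 to -0.06 with a median of -0.11, and none was called. By edgeR, 3 of the 34 genes had an unadjusted p under 0.05 there, none of them among the 9, against 1424 of 27029 tested genes. The medians of the 9 enzymes against the control mean were 0.04, -0.23 and -0.14 in the depleted replicates of MDA-MB-468. Those of the 381 abundant genes were 0.01, -0.13 and -0.06. The differences between the lines for the 9 enzymes were 0.22 to 0.44, with adjusted p from 0.526 to 0.857.

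**Figure D2:**
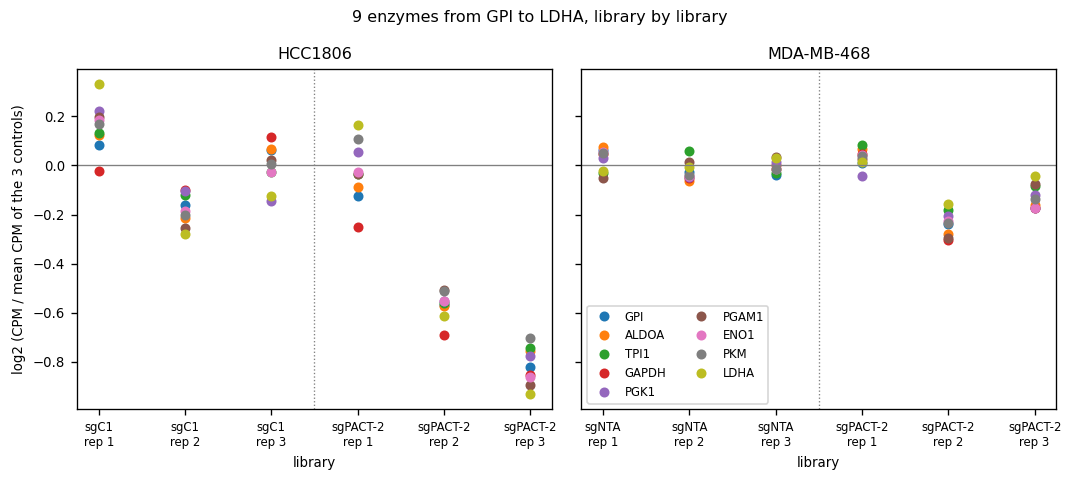
Log2 ratio of CPM to the mean of the line's 3 control libraries (vertical axis) for 9 enzymes in each library (horizontal axis), with HCC1806 on the left and MDA-MB-468 on the right. In HCC1806 the 9 points of depleted replicates 2 and 3 lie below all control points, with medians of -0.56 and -0.82, while those of depleted replicate 1 centre on -0.03.

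The other upstream genes of HCC1806 were not called. HK1, the hexokinase of most cells, went from 111.7 ± 12.4 to 95.2 ± 8.20 CPM (SD, n = 3 each; log2 fold change -0.23, adjusted p 0.315). HK2, the hexokinase commonly raised in tumours, measured 36.2, 16.6 and 24.6 CPM in controls and 42.3, 22.1 and 16.1 in depleted libraries. That spread between replicates was wider than the difference of 0.05. Among the enzymes that add the committing phosphate or cut the sugar, PFKM (-0.34, adjusted p 0.118) and ALDOC (-0.59, adjusted p 0.178) had depleted libraries below all controls. PFKL (-0.02) and PFKP (-0.25) overlapped. The PFKFB genes, whose enzymes make or remove the fructose bisphosphate that activates phosphofructokinase, and FBP1, which runs the reverse step, had adjusted p of 0.737 or more. SLC2A3, the high-affinity carrier GLUT3, had a value of -0.40 (SE 0.30, adjusted p 0.630).

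Downstream, LDHB, the lactate dehydrogenase subunit that favours the oxidation of lactate, had depleted libraries below all controls: 153.7, 130.0 and 128.5 CPM against 125.1, 98.0 and 72.4. The change (-0.48, SE 0.16, adjusted p 0.129) was not called, and its exons overlap those of AC010197.2. ENO3, the muscle enolase, was the only one of the 34 with depleted libraries above all controls, at 14.8, 16.5 and 17.1 CPM against 25.7, 19.7 and 17.9 (0.38, adjusted p 0.199). In all, 5 of the 34 had non-overlapping groups with the depleted one lower and 1 with it higher. Over all tested genes these shares were 8.18% and 8.5%. The lactate carriers SLC16A1 (-0.17, adjusted p 0.718) and SLC16A3 (0.15, adjusted p 0.776) and the 4 PDK genes (-0.16 to 0.31, adjusted p 0.666 to 0.924) were not called. BPGM, which makes the bisphosphoglycerate of red cells, had 0.36 (adjusted p 0.350).

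The make-up of the enolase family also differed between the HCC1806 groups, a comparison chosen after its values were seen. Per kb of exon, ENO1 held 92.4%, 91.4% and 92.0% of the 3 enolase genes in controls, against 90.2%, 88.1% and 87.2% in depleted libraries. ENO3 held 1.77%, 2.54% and 2.37%, then 3.49%, 3.76% and 4.17%. The groups did not overlap for either gene. Shares were also apart in HCC1806 for HK3, at few reads, and for the pair SLC16A1 and SLC16A3. There SLC16A1 held 69.7%, 68.1% and 64.0%, then 61.5%, 63.2% and 62.6%. In MDA-MB-468 the shares of PDK1, PDK3 and ENO1 were apart, with ENO1 at 98.4%, 98.2% and 98.2%, then 98.1%, 97.7% and 97.8%. Such a shift was thus particular neither to the enolases nor to HCC1806. These shares are given without a test, since 3 against 3 libraries cannot give an exact permutation p under 0.1.

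**Figure D3:**
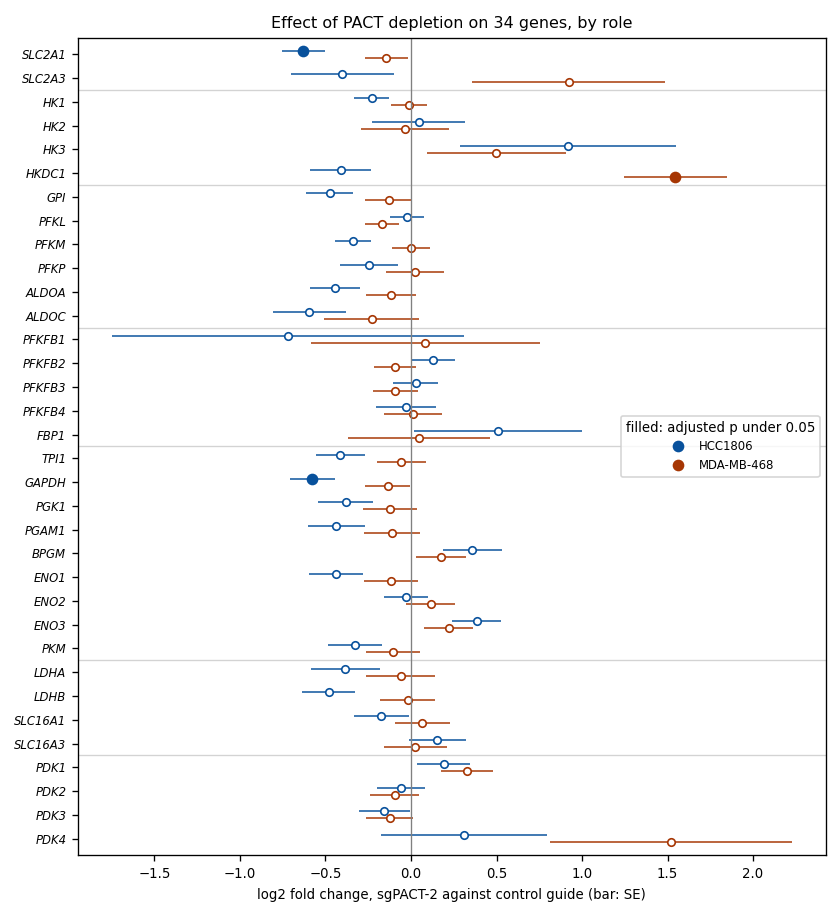
Log2 fold change of sgPACT-2 against the control guide (horizontal axis; bars are SE) for the 34 genes, ordered by role from glucose carriers to PDK genes, in HCC1806 (blue) and MDA-MB-468 (brown); filled points are called. The filled points are SLC2A1 at -0.63 and GAPDH at -0.58 in HCC1806 and HKDC1 at 1.54 in MDA-MB-468.

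In MDA-MB-468, HKDC1 was the 1 gene called, higher in depleted cells, or 2.94% of the 34. HKDC1 encodes the hexokinase domain containing protein, a further hexokinase of low activity. Of all tested genes, 0.17% were called in this line. The median of the 34 log2 fold changes was -0.03, against -0.01 over all genes. Groups were apart for 2 genes with the depleted one higher (HKDC1 and PDK1) and for 1 with it lower (SLC2A1). Over all tested genes these shares were 6.19% and 6.94%.

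HKDC1 (ENSG00000156510, chromosome 10, 69220303 to 69267559, plus strand) had 13, 19 and 16 reads in the MDA-MB-468 controls, against 42, 61 and 28 in depleted libraries. Depleted replicate 3 was the lowest of its group and lay above all controls. The level rose from 0.446 ± 0.115 to 1.30 ± 0.494 CPM (SD, n = 3 each), or by 1.54 on the log2 scale (SE 0.30, adjusted p 0.0489). The call lay at the threshold: the adjusted p was 0.0698 with the line alone, 0.224 with limma voom and a weight for each line, and 3.2e-04 with DESeq2. When each library was left out in turn, HKDC1 passed 4 of 12 times (adjusted p 0.0238 to 0.268). The call was lost without any 1 of the HCC1806 or MDA-MB-468 control replicates or of the MDA-MB-468 depleted replicates 1 and 2. In HCC1806 HKDC1 measured 43.0, 41.4 and 35.2 CPM in controls and 28.9, 36.0 and 25.03 in depleted libraries. Those groups overlapped (log2 fold change -0.41, SE 0.18, adjusted p 0.279).

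HKDC1 was also the 1 of the 34 genes called for a difference between the lines in their response. The interaction, the effect in MDA-MB-468 minus that in HCC1806, was 1.96 (SE 0.35, adjusted p 0.0343). Of all tested genes, 0.122% were called. It passed in 4 of 12 fits without 1 library (adjusted p 0.0125 to 0.149), with the same 8 left-out libraries ending the call, and gave 0.168 with limma voom. HK1 starts 2424 bp beyond the end of HKDC1 on the same strand. HK1 had log2 fold changes of -0.23 in HCC1806 and -0.01 in MDA-MB-468, and neither was called. The exons of HKDC1 overlap an antisense gene, AL596223.2, and whether counting used strand is not given in the sources used here.

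PDK1, the pyruvate dehydrogenase kinase induced by hypoxia, measured 25.7, 26.5 and 26.7 CPM in MDA-MB-468 controls and 31.1, 30.6 and 37.4 in depleted libraries. All 3 depleted libraries lay above all controls. The change (0.33, SE 0.15, adjusted p 0.942) was not called in the joint model. With the line fitted alone, where 1.51% of genes were called, its adjusted p was 0.0479 and it was the 1 of 33 genes tested that passed. In HCC1806 PDK1 measured 27.7, 21.8 and 21.4 CPM in controls and 33.9, 26.2 and 21.0 in depleted libraries, which overlapped (0.19, adjusted p 0.666). Of the remaining genes in MDA-MB-468, PDK4 (1.52, SE 0.71, adjusted p 0.942) and SLC2A3 (0.92, SE 0.56, adjusted p 1) had the largest values and under 1 CPM in every library. PDK4 passed the count filter only through HCC1806. The 9 central enzymes are given above, and the other 20 genes had log2 fold changes between -0.23 and 0.50, none called.

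The control libraries of the lines differed in far more of these genes. Of the 34, 28 were called (82.4%), 13 higher and 15 lower in MDA-MB-468. Of all tested genes, 74.2% were called, 34.2% higher and 40.1% lower, so the share among the 34 is near that of genes at large. The median of the 34 differences was 0.05, against -0.26 over all genes. With library size only, the median of all genes was -0.51 and that of the 34 genes -0.19. GAPDH (0.41) and PKM (0.43) lost the call under that scaling (adjusted p 0.178 and 0.204) and with genes of a mean of at least 50 counts. PKM also lost it in 2 of the 12 fits without 1 library (up to 0.0673), and PFKFB1 in 4 (up to 0.1).

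The carriers SLC2A1 and SLC2A3 were lower in MDA-MB-468. SLC2A3 measured 14.8, 7.96 and 8.33 CPM in HCC1806 and 0.0278, 0.365 and 0.150 in MDA-MB-468, a log2 difference of -5.85 (SE 0.43, adjusted p 1.4e-09). SLC2A1 differed by -0.43 (SE 0.13, adjusted p 0.00566). Per kb of exon, SLC2A1 held 98.6% of the reads of this pair of carriers in HCC1806, against 99.97% in the other line.

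Each line carried HK1 with a different second hexokinase. HKDC1 stood at 39.8 ± 4.09 CPM in HCC1806, against 0.446 ± 0.115 in MDA-MB-468. Its libraries read 43.0, 41.4 and 35.2 against 0.362, 0.578 and 0.399. Its log2 difference of -6.48 (SE 0.26, adjusted p 3.9e-13) was the furthest from 0 of the 34. HK2 measured 36.2, 16.6 and 24.6 CPM in HCC1806 and 132.5, 126.3 and 127.4 in MDA-MB-468 (2.32, SE 0.28, adjusted p 7.5e-07). Per kb, HK1 held 56.6 ± 4.22% of hexokinase reads in HCC1806, against 58.7 ± 0.188% in MDA-MB-468. HKDC1 held 29.8 ± 0.412% and 0.201 ± 0.0554%, and HK2 13.5 ± 4.58% and 40.5 ± 0.225% (SD, n = 3). HK3, the hexokinase of blood cells, was barely detected, at 0.125, 0.134 and 0.0846 CPM and 0.891, 1.28 and 0.649 CPM (adjusted p 9.0e-05). Its HCC1806 control libraries held at most 3 reads each, so no fold is given. HK3 passed the count filter only through MDA-MB-468, so its adjusted p-value is not used as support for a difference.

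The phosphofructokinase families followed line as well. PFKP led phosphofructokinase reads per kb in HCC1806 with 63.8 ± 3.01%, whereas PFKL led in MDA-MB-468 with 54.6 ± 0.598%. PFKM differed by -2.12 (SE 0.11, adjusted p 1.7e-11), PFKP by -1.45 and PFKL by 0.57. PFKFB3, a strong producer of the activating fructose bisphosphate, held 82.8 ± 3.49% of its family in HCC1806, against 52.3 ± 1.37% in MDA-MB-468, where PFKFB2 held 37.3 ± 1.54%. The gluconeogenic enzyme FBP1 was higher in MDA-MB-468 (1.31 ± 0.629 and 5.05 ± 0.349 CPM; 1.95, SE 0.47, adjusted p 0.00122). ALDOC, the brain aldolase, measured 26.5, 17.9 and 21.6 CPM against 1.84, 1.19 and 1.42 (-3.89, SE 0.25, adjusted p 2.5e-10). ALDOA, which held 96.4% of aldolase reads per kb in HCC1806 and 99.8% in MDA-MB-468, was not called (0.25, adjusted p 0.124).

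**Figure D4:**
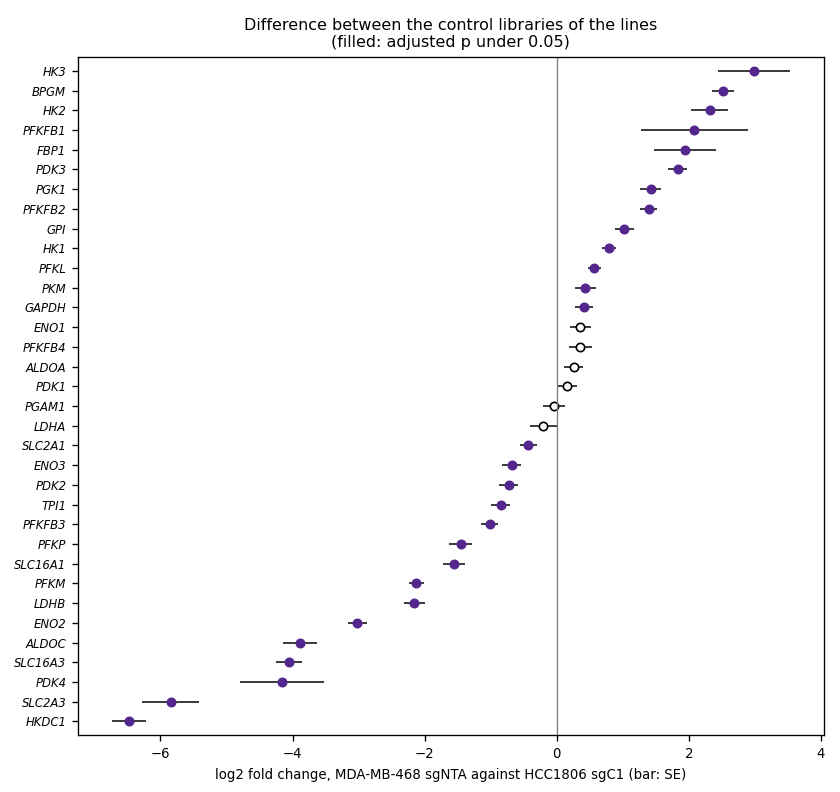
Log2 difference between the control libraries of MDA-MB-468 and HCC1806 (horizontal axis; bars are SE) for the 34 genes in order of size; filled points are called. The values run from -6.48 for HKDC1 to 2.51 for BPGM, apart from HK3, whose plotted position is no measured fold since its HCC1806 libraries held at most 3 reads each, and the 6 open points between -0.20 and 0.36 were not called.

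Of the later enzymes, BPGM was higher in MDA-MB-468, at 4.62, 4.74 and 4.57 CPM in HCC1806 against 26.2, 26.8 and 26.5 (2.51, SE 0.17, adjusted p 3.2e-10). PGK1, which makes the first ATP of the pathway, was higher by 1.42 (SE 0.16, adjusted p 4.2e-07) and TPI1 was lower by a difference of -0.85 (SE 0.14, adjusted p 4.5e-05). ENO2, the neuronal enolase, measured 48.5, 39.3 and 40.6 CPM against 5.40, 5.90 and 4.56 (-3.02, SE 0.14, adjusted p 3.8e-12). ENO1 was not called (0.36, adjusted p 0.0504), nor were PGAM1 (-0.04) and LDHA (-0.20).

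Transcripts of LDHB, SLC16A1 and SLC16A3, which act on or carry lactate, were lower in MDA-MB-468. LDHB measured 153.7, 130.0 and 128.5 CPM in HCC1806 and 33.1, 30.8 and 28.7 in MDA-MB-468 (-2.16, SE 0.16, adjusted p 2.0e-09). It held 43.3 ± 3.12% of lactate dehydrogenase reads per kb in HCC1806 and 16.3 ± 1.23% in MDA-MB-468. SLC16A3, the lactate exporter MCT4, measured 154.6, 116.3 and 141.9 CPM against 9.08, 8.15 and 7.63 (-4.05, SE 0.19, adjusted p 4.3e-12). SLC16A1, the carrier MCT1, was lower by a difference of -1.56 (SE 0.16, adjusted p 1.6e-07). SLC16A1 held 67.3 ± 2.95% of this pair of carriers in HCC1806 and 92.1 ± 0.612% in MDA-MB-468. PDK4, the fasting-induced kinase, measured 1.88, 3.76 and 1.86 CPM against 0.139, 0.0304 and 0.224 (-4.16, SE 0.64, adjusted p 1.5e-05). Those MDA-MB-468 libraries held 5, 1 and 9 reads, and PDK4 passed the count filter only through HCC1806. Its adjusted p-value is therefore not used as support for a difference. PDK2 led the kinases in HCC1806 with 42.5 ± 0.574% and PDK3 in MDA-MB-468 with 69.3 ± 0.854%. The leading gene thus differed between the control groups in 2 of 9 families, the phosphofructokinases and the PDK genes. Lengths are those of all annotated exons, so shares within a family depend on them.

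**Figure D5:**
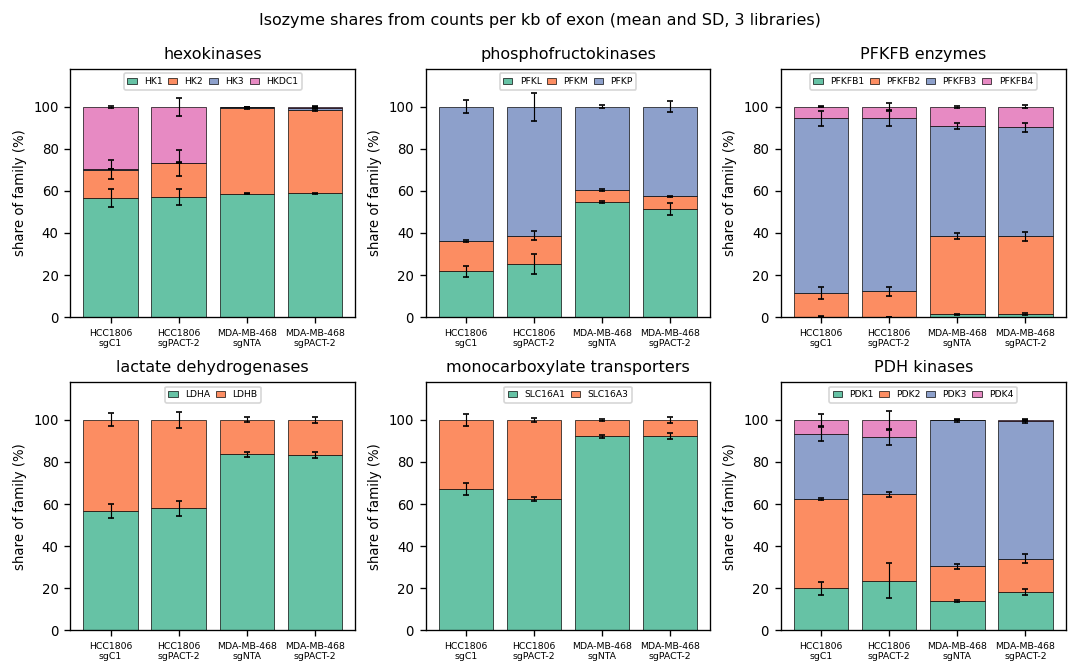
Share of each isozyme (vertical axis, percent of family counts per kb of exon, mean and SD of 3 libraries) in 6 families for the 4 groups. HKDC1 fills 29.8% of the HCC1806 control hexokinase bar, against 0.201% of that of MDA-MB-468, PFKL and PFKP exchange the lead, and PDK3 leads in MDA-MB-468 with 69.3%.

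Genes that border glycolysis were examined through 7 lists. The genes of 2 regulators of glucose uptake rose in HCC1806, and TKT and PGD of the pentose phosphate pathway fell. Across the lists, 11 of 103 tested genes were called in HCC1806, against 2.49% of all tested genes, a share that also applies to each list below. The 11 include SLC5A1, which passed the count filter only through MDA-MB-468. With HCC1806 alone 1 of 99 was called, against 0.315% of all genes. In MDA-MB-468 edgeR called 0 of 103, against 0.17% of all genes, with 4 at an unadjusted p under 0.05. There DESeq2 called 0, limma voom 0, and the fit of the line alone 1 of 98 (PGD, lower), against 1.51% of all genes.

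Among 13 regulators of glycolytic transcription, 2 were called in HCC1806, both higher. They are ARRDC4 and TXNIP, arrestin-like proteins that restrain glucose uptake and whose genes respond to glucose; neither is a transcription factor. ARRDC4 measured 5.04, 4.78 and 3.00 CPM in controls and 16.2, 14.9 and 17.5 in depleted libraries. It rose by 1.92 on the log2 scale (SE 0.29, adjusted p 0.00177), and it was the 1 gene of the lists called with HCC1806 alone (0.00321). TXNIP measured 45.7, 65.8 and 37.2 CPM in controls and 94.9, 147.4 and 236.7 in depleted libraries, with all depleted libraries above all controls. It rose by 1.69 (SE 0.28, adjusted p 0.00697), with 0.0566 for the line alone. Both passed in all 12 fits without 1 library. In MDA-MB-468 all 6 libraries had 0 reads of TXNIP, where 3 reads correspond to at most 0.0922 CPM, and ARRDC4 stayed at 0.142 CPM or less. A response of these genes could not be measured there. The median of the list was 0.20, against 0.01 over all genes.

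In the pentose phosphate pathway, which branches off at glucose phosphate to supply NADPH and ribose, TKT and PGD fell in HCC1806. TKT, the transketolase that returns carbon to glycolysis, measured 337.8, 414.9 and 423.5 CPM in controls and 217.6, 266.1 and 244.9 in depleted libraries (-0.69, SE 0.11, adjusted p 0.00242). PGD, an NADPH-producing enzyme, measured 170.8, 156.9 and 147.0 against 125.2, 119.0 and 83.5 CPM (-0.54, SE 0.13, adjusted p 0.0342). For both genes every depleted library was below every control. With HCC1806 alone neither passed (adjusted p 0.0908 for TKT and 0.230 for PGD). TKT passed in all 12 fits without 1 library and PGD in 4, with adjusted p up to 0.111 without control replicate 1. For TKT the difference between the lines was 0.54 (SE 0.15, adjusted p 0.244) and for PGD 0.26 (SE 0.18, adjusted p 0.761), so the effects were not shown to differ. In MDA-MB-468 both genes also had every depleted library below every control, as had 6.94% of all tested genes. PGD measured 204.8, 203.9 and 205.5 CPM against 184.7, 162.2 and 159.4, and TKT 544.1, 539.7 and 528.2 against 519.2, 445.8 and 492.1. The joint model called neither there, and PGD passed with that line alone (adjusted p 0.0327).

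Of 27 genes of pyruvate dehydrogenase and the TCA cycle, 3 were called in HCC1806, all lower. SDHD (-0.63, SE 0.13, adjusted p 0.0166) and SDHC (-0.42, SE 0.10, adjusted p 0.0336) encode the membrane anchor of succinate dehydrogenase, and MDH2 (-0.47, SE 0.11, adjusted p 0.0318) the mitochondrial malate dehydrogenase. With the line alone none passed (0.190 to 0.232; 7 of 27 at an unadjusted p under 0.05). SDHD lost the call without control replicate 2 (0.0640), SDHC in 6 of 12 such fits and MDH2 in 8. The list's median was -0.23, and its medians against the control mean were -0.11, -0.24 and -0.31 in depleted replicates 1 to 3, in the same order as for the 381 abundant genes. The part of the abundant genes in this result was not tested.

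Of 17 other carriers of glucose and monocarboxylates, 2 were called higher and 1 lower in HCC1806. SLC2A6, a lysosomal hexose carrier, rose by 0.69 (SE 0.18, adjusted p 0.0467), a call lost in 10 of 12 fits without 1 library. SLC5A1, the sodium-coupled glucose carrier SGLT1, measured 0, 0 and 0.0423 CPM in controls and 0.0979, 1.04 and 0.900 in depleted libraries (adjusted p 0.00589 by edgeR, 0.0665 with limma voom). In HCC1806, 3 reads correspond to at most 0.134 CPM in controls and 0.147 in depleted libraries. All controls and depleted replicate 1 held fewer than 3 reads. SLC5A1 passed the count filter only through MDA-MB-468, so its call is not read as a rise in HCC1806. In MDA-MB-468 SLC5A1 stood at 17.4 ± 1.61 and 15.2 ± 1.63 CPM (adjusted p 1), and its difference between the lines was called (adjusted p 0.0343) but passed in 1 of 12 fits without 1 library. BSG, the chaperone of the lactate carriers, fell from 601.7 ± 39.2 to 434.7 ± 73.3 CPM (-0.47, SE 0.11, adjusted p 0.0335), a call lost in 8 of those 12 fits. With HCC1806 alone, SLC2A6 and BSG had 0.204 and 0.244, and SLC5A1 was not among the 14 carriers tested.

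In HCC1806 edgeR called 0 of 16 hypoxia-inducible targets outside glycolysis (5 at an unadjusted p under 0.05, 2 with DESeq2, 0 with limma voom, 0 alone; median -0.18). It called 0 of 14 genes of glycogen and hexosamine synthesis (5 unadjusted, 0 with each other tool; median -0.08). It also called 0 of 8 tested genes of gluconeogenesis and other isozymes, from a list of 16 (2 unadjusted, 0 with each other tool; median -0.17).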

How the data were processed

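Total RNA of 12 libraries had been treated with DNase and depleted of rRNA, per the labels' protocols. The deposited values are raw counts per Ensembl gene; the submitters' processing notes name Trimmomatic 0.36, STAR 2.5.2b, featureCounts of Subread 1.5.2 and GRCh38. The annotation release and strand setting are not given in the sources used here, so antisense and overlapping genes, and those with pseudogene copies, are uncertain. Positions and exon lengths came from GENCODE 29, which held all 34 genes. Rows without a gene name held 0.0284% of counts.

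Counts were tested with edgeR 4.0.16 in R 4.3.3: filterByExpr, TMM, 1 quasi-likelihood model with a coefficient per group, two-sided, Benjamini-Hochberg over 27029 genes. The contrasts were depletion in each line, their difference, and the control libraries of the lines. The interpretation of 0 rests on a floor of 3 counts, which covers counting error only. Alternatives used DESeq2 1.42.0, limma 3.58.1 (voom), other scalings and filters, single lines, a stricter threshold of 0.01, a replicate block, and 12 fits that each left out 1 library.

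The 34 genes and the lists were chosen with earlier results of these data known. Values of every library are given for genes called in a depletion contrast or the interaction and for the 10 largest called, non-overlapping line differences; of each list, at most 3 called genes per line by adjusted p; PRKRA as a check. Values of other genes were named after they were seen. A result within the lists is not reported here.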

Additional observations from a re-analysis of the deposited data

Results flagged for a closer look

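Among the 34 genes, HKDC1 was the 1 whose response differed between the lines by the test of the difference itself. Its log2 effect in MDA-MB-468 minus that in HCC1806 was 1.96 (SE 0.35, adjusted p 0.0343 by edgeR), from 1.54 in MDA-MB-468 and -0.41 in HCC1806. The MDA-MB-468 value rests on 13 to 61 reads per library, and the difference passed in 4 of 12 fits that each left out 1 library. PRKRA, the targeted gene, was called for the same difference (0.87, adjusted p 1.5e-05 with DESeq2 and 0.0307 with limma voom). It passed in 5 of the 12 fits. The loss of PRKRA RNA was thus unequal between the lines, and its part in the HKDC1 result was not tested.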

How the results depend on the processing

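In HCC1806, 2 genes were called; DESeq2 called 4 (4.61% of all genes), no filter on low counts 11 (3.04% of all genes), the line alone 0 (10 of 32 at an unadjusted p under 0.05), an adjusted p under 0.01 gave 0, and fits without 1 library gave 0 to 12. In MDA-MB-468, 1 was called, and a mean of at least 50 counts, limma voom and an adjusted p under 0.01 each gave 0. By edgeR, 3 had an unadjusted p under 0.05, against 1424 of all 27029 tested genes. DESeq2 called 1, and fits without 1 library gave 0 to 1. For the difference between the lines, 1 was called, and limma voom and an adjusted p under 0.01 gave 0. By edgeR, 4 had an unadjusted p under 0.05, against 2269 of all 27029 tested genes. Fits without 1 library gave 0 to 4. The counts called lower in HCC1806 and higher in MDA-MB-468 and in the difference behaved likewise. Between the control libraries 28 were called, and 24 to 31 under every alternative. Raw counts in place of counts per kb gave 3 families with different leading genes in place of 2, PFKFB being added, and PDK1 (41.6%) in place of PDK2 (32.7%) as the leading kinase in HCC1806 controls. With the replicate number as a block, 13 genes were called in HCC1806, where calls over all genes rose from 2.49% to 7.20%. Same-numbered libraries correlated at 0.23, 0.14 and 0.08 in HCC1806 and at 0.03, 0.02 and 0.02 in MDA-MB-468. Libraries of unlike number correlated at -0.22 to 0.14 in HCC1806 and at -0.03 to 0.01 in MDA-MB-468. Each depleted library correlated best with the control of its own number, except HCC1806 depleted replicate 3, which did so with control replicate 2 (0.14). The labels do not say whether the numbers pair the libraries. The main model did not pair them, and a pairing is not excluded. No called direction reversed; of genes not called, 13 of 32 in HCC1806, 11 of 33 in MDA-MB-468 and 11 of 33 for the difference changed sign in some alternative. Depth limits HK3, PFKFB1, PDK4 and SLC2A3, which had few reads in at least 1 line.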
